A study of Sus scrofa with 4 samples.

Results

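The BCL2 family decides at the mitochondrion whether a cell lives or dies, and 10 of its genes were followed here in pig cells with and without knockdown of ZBTB16. The members were taken from the deposited tables by gene name: 3 that keep cells alive (BCL2, BCL2L1 and MCL1), and 7 that promote death, made up of 2 pore-forming effectors (BAX and BAK1) and 5 BH3-only proteins (BBC3, PMAIP1, BCL2L11, BID and BAD). All 10 were found among 26921 genes or loci, and all 10 passed the filter on low counts. The material was RNA of cultured cells from pig testis, labelled as immature spermatogonia, in 2 control libraries (genotype WT) and 2 libraries labelled ZBTB16 knockdown. ZBTB16, also called PLZF, is a zinc finger repressor used to mark the stem cell pool of the male germ line. The series' design plans the knockdown as a short hairpin RNA delivered by a lentivirus, and the labels do not say whether the control cells received a vector, so the virus and the knockdown cannot be told apart. The age and number of the pigs behind each library are not stated in the labels. Per the labels, biological samples came from 2 independent experiments, without saying which libraries share an experiment, so the p-values describe the spread of these 4 libraries.

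Pro-survival members of this family bind and restrain the effectors and the BH3-only proteins through a groove on their surface. When they are outnumbered, BAX and BAK1 assemble into pores in the outer mitochondrial membrane, cytochrome c leaves the mitochondrion, and caspases are switched on. BH3-only proteins are the sensors that start this: BBC3 and PMAIP1 (PUMA and NOXA) are induced by damage and stress, BCL2L11 (BIM) answers to loss of growth factors, BID is cut by a caspase downstream of death receptors, and BAD is held inactive by survival kinases. In the testis the balance of these proteins is known for setting how many early germ cells survive.

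What joins both sides of the family is the BH3 segment, the short helix through which members bind each other, so its coding sequence is shown for every member. Each line gives the RefSeq reference sequence of Sscrofa 11.1 on the coding strand, 45 bases that lie within an exon of the gene. The capitals mark the 18 bases of the core, which encode a leucine, any 3 residues, then glycine, alanine or serine, and then aspartate.
BCL2 (chr1:158339018-158339062, plus strand): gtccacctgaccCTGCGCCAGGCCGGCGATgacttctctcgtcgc
BCL2L1 (chr17:35413741-35413785, minus strand): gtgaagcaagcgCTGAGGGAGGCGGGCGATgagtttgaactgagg
MCL1 (chr4:98562861-98562905, plus strand): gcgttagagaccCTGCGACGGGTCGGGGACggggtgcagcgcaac
BAX (chr6:54223252-54223296, plus strand): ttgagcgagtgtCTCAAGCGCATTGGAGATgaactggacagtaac
BAK1 (chr7:29811733-29811777, minus strand): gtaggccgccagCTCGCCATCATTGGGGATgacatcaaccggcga
BBC3 (chr6:53040930-53040974, minus strand): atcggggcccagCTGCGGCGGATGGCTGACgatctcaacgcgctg
PMAIP1 (chr1:161185236-161185280, minus strand): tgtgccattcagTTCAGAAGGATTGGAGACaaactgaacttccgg
BCL2L11 (chr3:45174074-45174118, minus strand): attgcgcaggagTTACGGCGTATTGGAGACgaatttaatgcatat
BID (chr5:69851339-69851383, minus strand): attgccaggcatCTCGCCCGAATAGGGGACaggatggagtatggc
BAD (chr2:7841819-7841863, plus strand): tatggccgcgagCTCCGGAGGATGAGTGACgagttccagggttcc

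The core was found with leucine at its first residue in 9 members, and in PMAIP1 only after phenylalanine was allowed there. A match alone says little, since 35.4% of 20785 annotated genes have the leucine form somewhere in their longest coding sequence. BAK1 had 2 matches, and the segment shown is the match that all 4 of its annotated coding sequences hold. In BCL2L11 the segment is in 6 of 9 annotated coding sequences, so some of its isoforms lack it. Between members the core was most alike in DNA for BCL2 and BCL2L1 and for BBC3 and BAD, with 14 of 18 bases equal in each pair, and least alike for BCL2L1 and BID, with 6 of 18. BAX and BAK1 shared 12.

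The members lie on 8 chromosomes. BAX and BBC3 are neighbours at a distance of 1.18 Mb on chromosome 6, and BCL2 and PMAIP1 at 2.67 Mb on chromosome 1. In the authors' deposited annotation all 10 carry the KEGG pathway of apoptosis and 5 that of PI3K-Akt signalling (BCL2, BCL2L1, MCL1, BCL2L11 and BAD).

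Sequencing depth was 17283536 and 15983390 expected counts in the controls against 18500447 and 16548342 after knockdown. The groups also differed in ways that touch every gene: the fragment length implied by the deposited lengths and effective lengths was 325 and 326 bases in the controls and 265 and 266 in the knockdown, and the FPKM values (fragments per kilobase of transcript, scaled for depth) of a knockdown library summed to 0.855 times those of a control. ZBTB16 itself was at 1.77 and 1.76 FPKM in the controls and 1.37 and 1.34 in the knockdown, a level 0.779 times that of the control by counts (log2 fold change -0.36, SE 0.109, adjusted p = 0.00338 with edgeR's quasi-likelihood test). With DESeq2 the adjusted p was 0.113, so the call for the targeted RNA depended on the test.

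Of the 10 members, 5 fell in the knockdown, 0 rose and 5 did not pass the test (edgeR, Benjamini-Hochberg adjusted p under 0.05 over all genes tested). The members that fell were both effectors, BAX and BAK1, the BH3-only genes BBC3 and PMAIP1, and the pro-survival gene MCL1. Among all 15763 genes tested 23.8% fell and 22.7% rose, so 46.4% were called in either direction. These calls rest on a small spread between libraries of a group beyond counting noise. In the edgeR fit it was a common biological coefficient of variation of 0.0129, to which counting noise adds. Whether that spread covers the variation between separate cultures or pigs was not tested. At an unadjusted p under 0.05 the members gave the same counts, 5 lower and 0 higher, and DESeq2, which called 28.2% of all genes (14.4% lower, 13.8% higher), also called 5 lower and 0 higher. The limma fit on log2(FPKM + 1), which called 29.7% of its genes lower and 15.6% higher, stands beside these fits in the member accounts, as do the fit on log2(TPM + 1) (53.2% called, 13.7% lower and 39.5% higher), the fit with the length trend removed (40.9% called, 21% lower and 19.9% higher), that with length and GC trends removed (39.1% called, 19.4% lower and 19.7% higher) and that with the effective length as an offset (23.9% lower and 22.5% higher). The median log2 change was -0.23 over the 10 members and -0.50 over the 7 pro-death members, against -0.000823 over all genes tested. Of the 3 pro-survival members 1 fell, of the 2 effectors 2, and of the 5 BH3-only members 2.

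**Figure D1:**
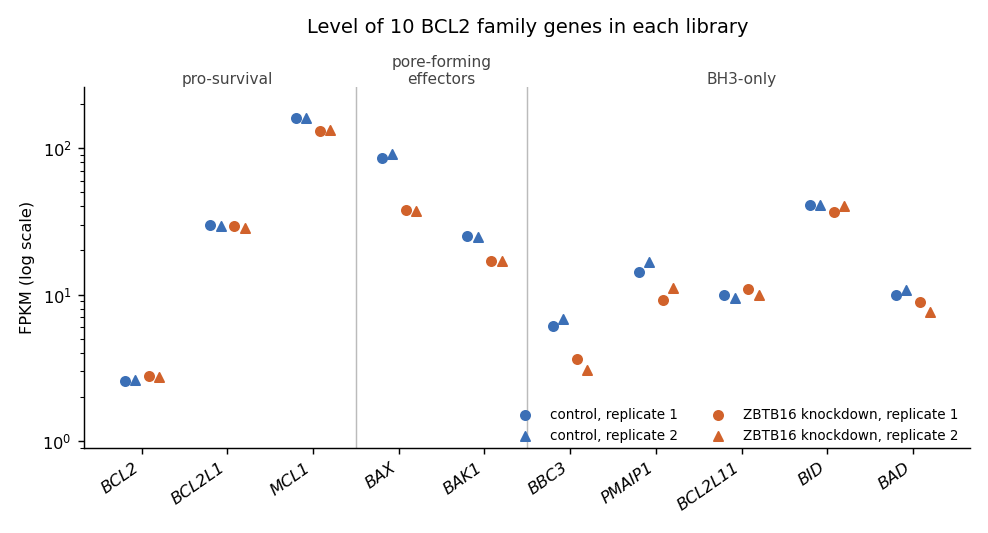
FPKM of the 10 members in each of the 4 libraries on a log axis, blue for control and orange for knockdown, circles for replicate 1 and triangles for replicate 2. BAX stands between 86.2 and 91.4 in the controls and between 36.9 and 37.7 in the knockdown, while BCL2, BCL2L1, BCL2L11 and BID lie close together in all libraries.

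Among the pro-survival genes MCL1 was by far the most abundant. MCL1, a short-lived protein that restrains BAK1 and BCL2L11, was at 159.45 and 159.39 FPKM in the controls and at 131 and 133 in the knockdown (chromosome 4, 98562092 to 98567014). Both knockdown libraries were lower than both controls. By counts its level was 0.853 times the control (log2 -0.23, SE 0.0215, adjusted p = 3.08e-19 with edgeR). Given as TPM, which sums to the same total in every library, MCL1 was at 216 and 215 in the controls and 206 and 210.4 in the knockdown, and limma on log2(TPM + 1) gave -0.05 on the log2 scale (adjusted p = 0.188). On that scale the median gene was at 0.14, so MCL1 stayed below it.

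BCL2L1 encodes BCL-xL, a pro-survival protein of the outer mitochondrial membrane. It was at 29.9 and 29.6 FPKM in the controls and 29.3 and 28.5 in the knockdown (chromosome 17, 35366139 to 35415798). The counts differed by -0.00484 on the log2 scale, with a 95% interval from -0.10 to 0.09 (adjusted p = 0.946, edgeR). BCL2, the founding member of the family, was at 2.55 and 2.60 FPKM in the controls and 2.76 and 2.74 in the knockdown (chromosome 1, 158337403 to 158518214). It was the member with the lowest FPKM in every library. Its log2 change of 0.14 did not pass (95% interval -0.03 to 0.30, adjusted p = 0.191, edgeR). With limma on log2(TPM + 1) BCL2 and BCL2L1 passed as higher, by 0.25 and 0.18 (adjusted p = 0.0372 and 0.0112). In that fit the median gene was at 0.14 and 39.5% of genes passed as higher.

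Both effectors fell, and BAX had the largest change of the 10 members. BAX, which moves from the cytosol to the mitochondrion and forms the pore, was at 86.2 and 91.4 FPKM in the controls and at 37.7 and 36.9 in the knockdown (chromosome 6, 54222341 to 54228150). Both knockdown libraries were far below both controls, and the replicates of each group lay close together. BAX rested on 753 and 738 counts against 388 and 343, and its fitted level was 0.471 times the control (log2 -1.09, SE 0.0669, adjusted p = 4.79e-34, edgeR). Only 162 of the 15763 genes tested (1.03%) had a log2 change as low. BAX fell under all 16 alternative fits, with log2 changes from -1.25 to -0.63, the smallest after trends of transcript length and GC content had been removed.

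BAK1 is the second pore-forming effector and sits in the outer mitochondrial membrane. It was at 25.2 and 24.8 FPKM in the controls and at 16.88 and 16.85 in the knockdown (chromosome 7, 29808849 to 29815345). Each group was tight and the groups did not overlap. Its level by counts was 0.706 times the control (log2 -0.50, SE 0.0609, adjusted p = 6.79e-13, edgeR). BAK1 also fell under all 16 alternatives, and its log2 change was -0.33 with limma on log2(TPM + 1) and with the length and GC trends removed. The fall of BAK1 was smaller than that of BAX, with 95% intervals of -0.62 to -0.38 and -1.22 to -0.95 that do not overlap; the difference between the genes was not itself tested.

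The BH3-only genes split. BBC3, which encodes PUMA, a strong killer that binds all pro-survival members, was at 6.06 and 6.82 FPKM in the controls and at 3.62 and 3.04 in the knockdown (chromosome 6, 53037103 to 53046902). Both knockdown libraries were below both controls, from 156 and 157 counts against 110 and 83. Its level by counts was 0.593 times the control (log2 -0.75, SE 0.138, adjusted p = 9.35e-07, edgeR), and it fell under all 16 alternatives, between -0.93 and -0.57.

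PMAIP1 encodes NOXA, which binds MCL1 and promotes its breakdown. It was at 14.4 and 16.7 FPKM in the controls and at 9.11 and 11.02 in the knockdown (chromosome 1, 161184458 to 161188138). Replicates differed more than for BAX or BAK1, but the groups did not overlap. Its level by counts was 0.706 times the control (log2 -0.50, SE 0.119, adjusted p = 1.64e-04, edgeR), with -0.29 (adjusted p = 0.0367) after the length trend had been removed. Without a filter on low values, limma on log2(FPKM + 1) gave -0.58 (adjusted p = 0.0552).

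BCL2L11, the gene of BIM, was at 9.97 and 9.49 FPKM in the controls and at 10.96 and 9.97 in the knockdown (chromosome 3, 45156791 to 45202996). It was the only member whose FPKM overlapped between the groups, since control replicate 1 and knockdown replicate 2 had the same value. Its log2 change of 0.10 did not pass (95% interval -0.01 to 0.20, adjusted p = 0.13, edgeR). An offset for effective length made it pass as higher, by 0.16 (adjusted p = 0.0265), as did limma on log2(TPM + 1), by 0.31 (adjusted p = 0.0134). The median gene was at 0.14 in the TPM fit.

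BID, which links death receptors to the mitochondrion, was the most abundant BH3-only gene, at 41.0 and 40.8 FPKM in the controls and 36.6 and 40.4 in the knockdown (chromosome 5, 69849007 to 69874647). The counts gave a log2 change of -0.04 (95% interval -0.17 to 0.10, adjusted p = 0.698, edgeR). The deposited mean length of its transcripts was 1054, 1046 and 1047 bases in the first 3 libraries and 972 in knockdown replicate 2, so the mixture of transcripts assigned to BID differed in that library. BID passed as higher after the length trend had been removed (log2 0.19, adjusted p = 0.0187) and after the length and GC trends had been removed (log2 0.30, adjusted p = 6.52e-05).

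BAD, the member that survival kinases hold in check, was at 9.98 and 10.7 FPKM in the controls and 8.88 and 7.59 in the knockdown (chromosome 2, 7831192 to 7842864). It rested on 109, 111, 111 and 85 counts, and its log2 change of -0.22 came with the widest interval, -0.52 to 0.07 (adjusted p = 0.225, edgeR). It was -0.35 without knockdown replicate 1 and -0.12 without knockdown replicate 2. It passed as lower with limma on log2(FPKM + 1) (log2 -0.30, adjusted p = 0.0387), and stood at 0.18 (adjusted p = 0.377) with the length and GC trends removed. FPKM of 9 members did not overlap between the groups, which was also true of 70.4% of all genes tested, with 41.4% lower in both knockdown libraries. By TPM 74.3% of genes did not overlap and 20.3% were lower in both knockdown libraries.

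**Figure D2:**
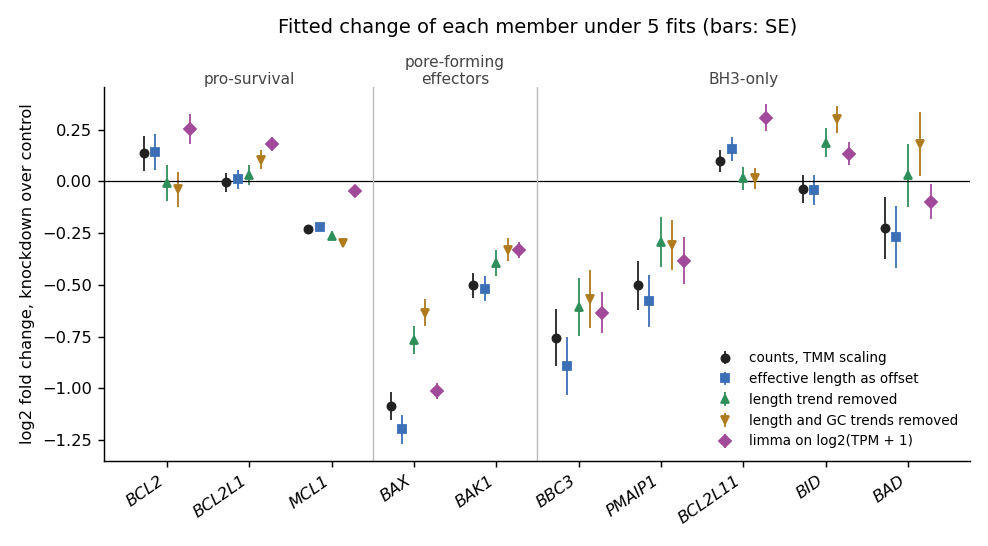
Log2 fold change of each member, knockdown over control, under 5 fits, with bars of 1 SE. BAX, BAK1, BBC3, PMAIP1 and the pro-survival MCL1 lie below 0 under every fit shown, while BCL2, BCL2L1, BID and BAD lie on either side of 0.

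Some members share their locus with an overlapping annotated gene, and whether reads were exchanged between them was not tested. No other annotated gene overlaps BAX, BBC3, PMAIP1 or MCL1. BAK1 overlaps LOC102162214, which did not pass the test, and BID overlaps LOC110260761, which rose. BCL2 and BCL2L11 each overlap 2 annotated genes, and BCL2L1 and BAD 1 each, none of which was among the genes tested. The labels do not state whether reads were counted by strand.

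Because a ratio within a library does not depend on how libraries are scaled, the pro-death members were also set against the pro-survival members in each library. Such a ratio still holds any difference tied to transcript length. The ratio of BAX to BCL2, a common measure of readiness to die, was 33.8 and 35.2 in the controls and 13.6 and 13.5 in the knockdown, which is 0.393 times the control. BAX stood to BCL2L1 at 2.88 and 3.09 in the controls and at 1.29 in both knockdown libraries, a ratio 0.432 times the control. In both ratios the knockdown libraries were far below the controls and nearly equal to each other. These genes differ in transcript length. With the length trend removed the log2 changes were -0.77 for BAX, -0.008 for BCL2 and 0.03 for BCL2L1. With length and GC trends removed they were -0.63, -0.04 and 0.10. The ratios themselves were not corrected in this way.

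Summed by role, BAX and BAK1 stood to the 3 pro-survival genes at 0.58 and 0.607 in the controls and at 0.334 and 0.327 in the knockdown. The 5 BH3-only genes stood to them at 0.424 and 0.441 in the controls and at 0.424 and 0.438 in the knockdown. So the effector ratio was lower in the knockdown by 0.84 on the log2 scale, while the BH3-only ratio overlapped between the groups. The BH3-only sum was itself lower, at 81.4 and 84.5 FPKM in the controls and 69.2 and 72.0 in the knockdown. So was the pro-survival sum, led by MCL1, at 192 and 191.6 against 163 and 164. The sum of FPKM over all genes was also lower, at 0.855 times the control, so lower sums on this scale are not particular to these genes. With MCL1 left out of the pro-survival sum the log2 difference was -0.20 for the BH3-only ratio and -1.04 for the effector ratio. The exact two-sided permutation p was 0.3333 for the first 3 ratios, the smallest that 2 against 2 libraries can give, and 0.667 for the last. The effectors made up 28.9% and 29.6% of the summed FPKM of the family in the controls and 19.0% and 18.5% in the knockdown. MCL1 alone made up 41.5% and 40.6% in the controls and 45.7% and 45.9% in the knockdown, and BAX 22.4% and 23.3% against 13.1% and 12.7%.

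**Figure D3:**
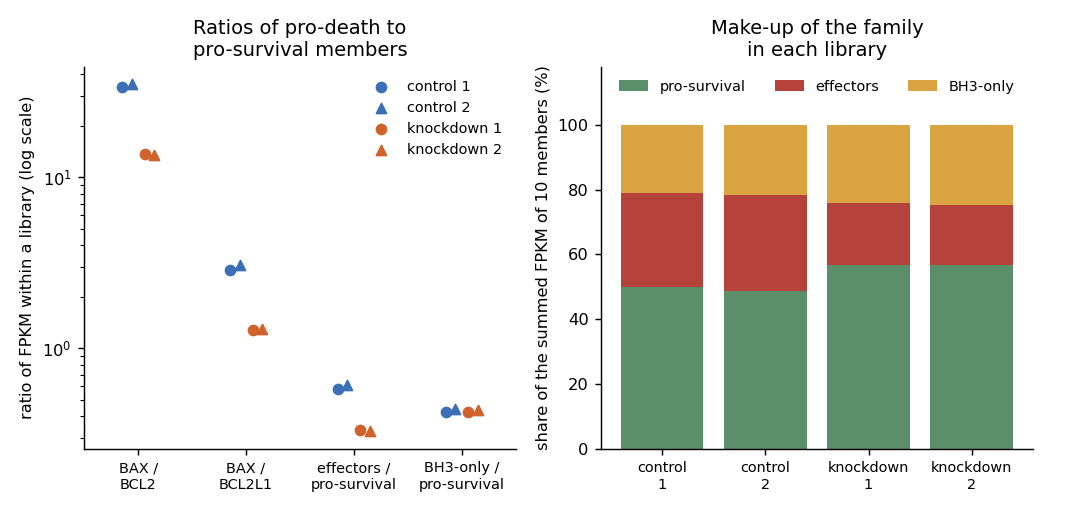
Left, ratios of FPKM within each library on a log axis, blue for control and orange for knockdown; right, the share of the summed FPKM of the 10 members held by each role. The BAX to BCL2 ratio drops from above 33 to below 14, and the share of the effectors from 28.9% or more to 19.0% or less. No trend with transcript length was removed from these values.

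Changes were related to transcript length over all genes, and the members differ in length. Across the genes tested the log2 change rose with length (Spearman 0.37, across genes, which are not replicates). The shortest genes went the other way: the 235 genes under 500 bases, which hold no member, had a median of 0.70, and 51.9% of them rose. The 884 genes of 500 to 1000 bases, the class of BAX (828 bases) and BAD (954 bases), had a median log2 change of -0.42, and 60.2% of them fell. The 3177 genes of 1000 to 2000 bases, the class of BBC3, PMAIP1 and BID, had a median of -0.19, and 43.1% fell. In the class of BCL2L1, MCL1 and BAK1, from 2000 to 4000 bases, the median was -0.01 and 21.5% fell, and in that of BCL2 and BCL2L11, from 4000 to 8000, it was 0.10 and 10.1% fell. BAX, BBC3, BAK1, PMAIP1 and MCL1 each lay below the median of their class, and BID and BAD above it. BCL2, BCL2L1 and BCL2L11 were close to it. The same 5 members fell once length and GC trends had been taken out, BAX by 0.63, BBC3 by 0.57, BAK1 by 0.33, PMAIP1 by 0.31 and MCL1 by 0.30 on the log2 scale. The part of length in the result was not tested beyond these fits.

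**Figure D4:**
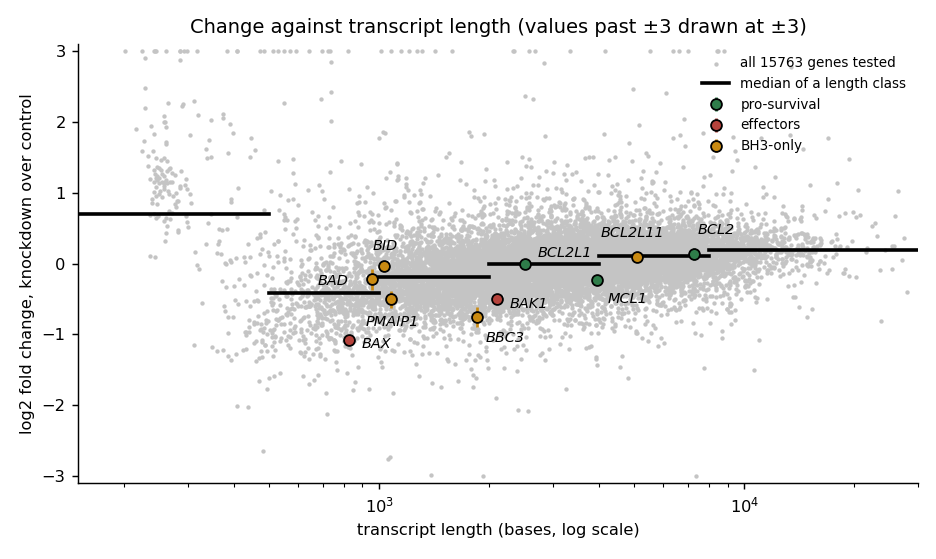
Log2 fold change, knockdown over control, against transcript length on a log axis for all 15763 genes tested (grey), with the median of each length class (black lines) and the 10 members coloured by role with bars of 1 SE; grey points beyond the axis range are drawn at its limits. BAX lies at -1.09, below the median of -0.42 for genes of its length.

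Other genes of the BCL2 family were lower or did not pass. Of 9 tested, 6 fell and 0 rose at a median log2 change of -0.32 (edgeR), beside 23.8% lower and 22.7% higher over all genes. At an unadjusted p under 0.05 the counts were also 6 and 0. DESeq2 called 1 of the 9 lower and 0 higher, beside 14.4% lower and 13.8% higher over all genes. BNIP3, a mitophagy receptor with a BH3-like segment, fell from 85.8 and 85.6 to 65.4 and 63.1 FPKM (log2 -0.32, adjusted p = 1.63e-11), and its log2 change was -0.07 (adjusted p = 0.185) with the length and GC trends removed. Its relative BNIP3L was at 85.8 and 86.7 FPKM in the controls and 82.3 and 87.1 in the knockdown and did not pass. BCL2A1, a pro-survival member of blood cells, fell from 11.4 and 12.1 to 5.03 and 6.32 FPKM (log2 -0.77, adjusted p = 0.00285), but missed the threshold when knockdown replicate 1 was left out (adjusted p = 0.0676) and when the length trend was removed (0.135). Of 6 macrophage and leukocyte markers 3 fell in the same libraries, AIF1, CD163 and CD14 (log2 -1.31, -0.58 and -0.34), PTPRC rose (log2 0.44), and their part in the result was not tested.

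The BH3-only genes BMF and HRK, the effector-like BOK and BCL2L12 completed the 6. BMF fell from 5.34 and 5.29 to 4.53 and 4.46 FPKM (log2 -0.29) and BCL2L12 from 4.01 and 4.09 to 2.99 and 2.34 FPKM (log2 -0.53). Both calls held when a library was left out, but neither passed with DESeq2 (adjusted p = 0.0614 for BMF and 0.0547 for BCL2L12) or with limma on log2(TPM + 1), where BMF was at -0.01 and BCL2L12 at -0.32. For BOK (log2 -0.33) the change was -0.25 (adjusted p = 0.136) when control replicate 2 was left out and -0.27 (0.0889) when knockdown replicate 2 was. For HRK (log2 -0.35) it was -0.20 (adjusted p = 0.314) when control replicate 1 was left out and -0.29 (0.109) when knockdown replicate 2 was. BCL2L13 and BCL2L15 did not pass, and BCL2L10 and BCL2L14 were at 0.16 FPKM or less in all libraries and were not tested. With limma on log2(TPM + 1) 2 of these genes were called lower and 1 higher.

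Downstream of the mitochondrial pore 15 genes were tested, of which 4 were lower and 3 higher (median -0.06), beside 23.8% lower and 22.7% higher over all genes. The counts depended on the scale: limma on log2(TPM + 1) called 2 lower and 6 higher, and limma on log2(FPKM + 1) called 1 higher. RNA of proteins that leave the mitochondrion went both ways. CYCS, cytochrome c, which assembles the apoptosome, fell from 126 and 125 to 84.5 and 92.5 FPKM (log2 -0.40, adjusted p = 8.99e-18), and HTRA2, a protease that counters inhibitors of caspases, from 18.3 and 16.5 to 10.6 and 10.5 (log2 -0.65). DIABLO, which also frees caspases from their inhibitors, rose from 62.2 and 61.3 to 70.7 and 71.6 FPKM (log2 0.30, adjusted p = 4.71e-09). The calls of CYCS, HTRA2 and DIABLO held under all 16 alternatives. AIFM1, a further released factor, fell as well (log2 -0.42), and its call held under 14 of 16.

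Inhibitors of apoptosis were 2 higher, 1 lower and 2 not passing of 5 tested (median 0.01), beside 22.7% higher and 23.8% lower over all genes. BIRC6, a giant ubiquitin ligase that restrains caspases, rose from 9.78 and 9.81 to 12.4 and 12.5 FPKM (log2 0.36), with 0.07 (adjusted p = 0.0706) once length and GC trends were removed. CFLAR, a decoy of caspase 8, fell by counts (log2 -0.24), but with the effective length as an offset the change was -0.09 (adjusted p = 0.0996), and it was 0.08 with limma on log2(TPM + 1) (adjusted p = 0.159).

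Death receptors and their adaptors gave 3 higher and 2 lower among 8 tested genes (median -0.01), beside 22.7% higher and 23.8% lower over all genes. DESeq2, and edgeR without knockdown replicate 1, called 1 higher, and limma on log2(TPM + 1) called 5 higher. TNFRSF1A, a receptor of TNF and among the 3, kept its call under 8 of 16 alternatives. FAS, a death receptor, rose from 6.30 and 6.04 to 8.25 and 9.07 FPKM (log2 0.54, adjusted p = 8.96e-08), and TRADD, the adaptor of the TNF receptor, fell from 18.8 and 19.4 to 13.9 and 13.5 (log2 -0.42, adjusted p = 1.51e-08). Both calls held under all 16 alternatives. FADD, the adaptor of FAS, fell (log2 -0.35) and was at -0.04 (adjusted p = 0.658) with the length and GC trends removed.

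Among proteins that control the stability or the state of BCL2 family members 27 were tested, with 11 higher and 8 lower (median 0.0031). Over all genes tested 22.7% were higher and 23.8% lower. With limma on log2(TPM + 1) the counts were 16 higher and 1 lower, and with the length trend removed 4 were lower. HUWE1, a ubiquitin ligase that marks MCL1 for breakdown, rose from 29.7 and 28.9 to 39.1 and 38.0 FPKM (log2 0.42, adjusted p = 2.21e-40). Its log2 change lay between 0.18 and 0.61 under the alternatives. Genes of 8000 bases or more, HUWE1 among them, had a median log2 change of 0.19, and 45.0% of them rose. The 14-3-3 genes YWHAZ, whose protein can hold BAD in the cytosol, and YWHAE rose by log2 changes of 0.22 and 0.20, and BAG3, a cochaperone that protects pro-survival members, by 0.33. TMBIM6, known as BAX inhibitor 1, fell from 449 and 453 to 339 and 329.8 FPKM (log2 -0.25, adjusted p = 5.04e-20). The calls of HUWE1, YWHAZ, YWHAE, BAG3 and TMBIM6 held under all 16 alternatives. USP9X, which removes ubiquitin from MCL1, rose by 0.23 and was at 0.05 (adjusted p = 0.172) with the length trend removed.

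**Figure D5:**
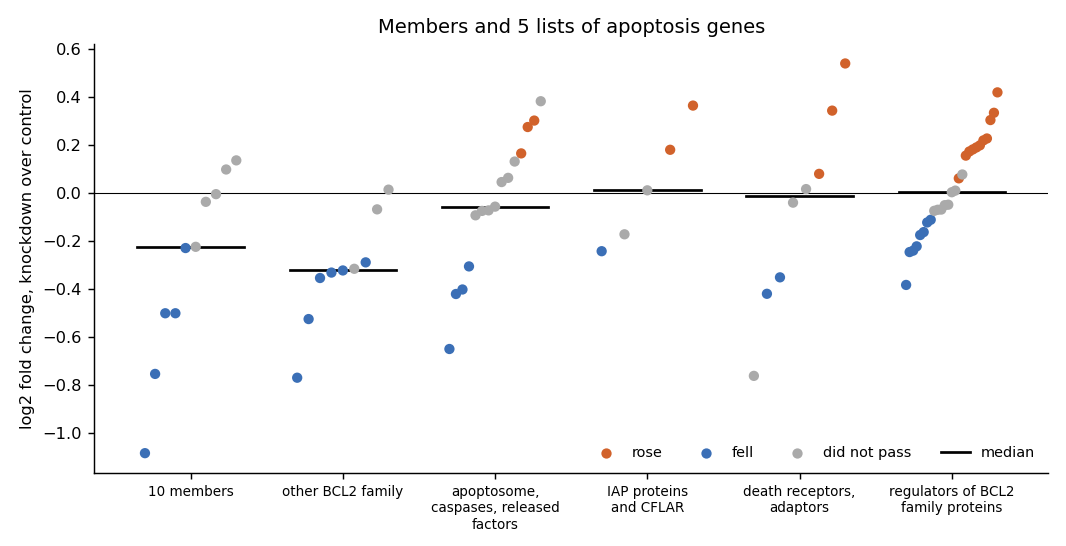
Log2 fold change, knockdown over control, of each tested gene among the 10 members and 5 lists of apoptosis genes, coloured by the edgeR call, with the median of each set as a black bar. The members and the other BCL2 family genes have medians of -0.23 and -0.32 and no gene that rose, while the other lists hold genes on both sides and medians between -0.06 and 0.01.

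The cells were checked against markers of the labelled type and of other testis cells. Counts of markers called stand beside 22.7% higher and 23.8% lower over all genes tested. The 10 markers of undifferentiated spermatogonia summed to 195 and 199 FPKM in the controls and 168 and 176 in the knockdown, with SALL4, GFRA1 and LIN28A under 1. Of these markers 3 rose (ITGA6, DAZL and SALL4), 2 fell (UCHL1 and ZBTB16) and 4 did not pass, and the sum was led by UCHL1. The germ cell genes DDX4 and DAZL were at 1.86 to 2.3 and 2.06 to 3.36 FPKM, ZBTB16 at 1.34 to 1.77 and LIN28A at 0.31 or less. UCHL1 was at 121.7 and 120.4 in the controls and at 89.05 and 85.25 in the knockdown. ITGA6, ID4 and THY1 were at 14.35 or more in every library. The 7 Sertoli cell markers summed to 765 and 777 FPKM in the controls and 941 and 966 in the knockdown, with 5 higher, 1 lower and 1 not passing. Markers of peritubular cells and fibroblasts summed to 6834 and 6924 FPKM in the controls and to 6533 and 6630 in the knockdown, with 2 higher (ACTA2 and MYH11), 4 lower and 1 not passing, TAGLN among the lower. The 6 markers of macrophages and leukocytes summed to 34.3 and 38.2 against 23.9 and 26.4. The Leydig cell markers summed to 204 and 207 FPKM against 169.8 and 181, with STAR, CYP17A1 and LHCGR below 1. Among the Leydig cell markers 0 rose, INSL3 fell (log2 -0.72) and 4 did not pass. The endothelial markers summed to at most 11.7, and no marker of any list was at 0 in all libraries. Genes that mark somatic testis cells were thus expressed in every library. ZBTB16, SALL4, DDX4, DAZL, GFRA1 and LIN28A each lay below every Sertoli cell marker and every peritubular marker in every library. In bulk RNA fewer cells of a type and less RNA per cell cannot be told apart for any member, and the part of these cell types in the fall of BAX, BAK1, BBC3, PMAIP1 and MCL1 was not tested.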

How the data were processed

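RNA of 2 control and 2 ZBTB16 knockdown libraries was compared. Per the labels' protocols, reads were filtered with SOAPnuke 2.1.0, aligned to Sscrofa 11.1 with HISAT2 2.2.1, mapped to transcripts with bowtie2 2.3.5 and counted with RSEM 1.3.3. The authors deposited expected counts, which need not be whole, FPKM and TPM (normalized by transcript length and library), and transcript lengths in bases. Expected counts were rounded and tested with edgeR 4.0.16 in R 4.3.3 (TMM scaling, filterByExpr with minimum count 10 and minimum total 15, two-sided quasi-likelihood test, Benjamini-Hochberg adjustment over all genes tested, threshold 0.05). "Rose" and "fell" are used only of genes that passed. SE is the log2 change divided by the root of F, and 95% intervals use it with a normal quantile. Alternatives were DESeq2 1.42.0, RLE and upper-quartile scaling, no low-count filter, limma 3.58.1 on log2(FPKM + 1) and log2(FPKM + 0.1), a replicate block, leaving out each library, an effective-length offset, and removal of length or of length and GC trends (mgcv 1.9.3, GC from the RefSeq transcripts of the same build); limma on log2(TPM + 1) was added after the data were seen. BH3 segments were read from the RefSeq genome through the annotated coding sequences.

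Named genes were all members, any other BCL2 family gene, and in each related list at most 6 called genes, ranked by p, whose mean FPKM reached 1. The members and lists were chosen with earlier results of these data known. Of the list entries 8 were not found by symbol and were not analysed here. Some genes and 1 of the lists are not reported here.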

Additional observations from a re-analysis of the deposited data

How the results depend on the processing

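BAX, BAK1 and BBC3 fell under all 16 alternatives, and MCL1 and PMAIP1 under 15 each. The exceptions were MCL1 with limma on log2(TPM + 1) (log2 -0.045) and PMAIP1 with limma on log2(FPKM + 1) and no filter (-0.58). The number of members called higher was 0, but 1 with the effective length offset, with the length trend removed and with the length and GC trends removed, and 3 with limma on log2(TPM + 1). BCL2 was at -0.0077 and -0.038 with the length trend and the length and GC trends removed and at 0.25 with limma on log2(TPM + 1). BCL2L1 was at 0.011 with the effective length offset, 0.032 and 0.10 with the trends removed, 0.18 with limma on log2(TPM + 1), and between -0.026 and 0.013 when a library was left out. BCL2L11 passed at 0.16 with the effective length offset and at 0.31 with limma on log2(TPM + 1). BID was at 0.19 and 0.30 with the trends removed and 0.13 with limma on log2(TPM + 1). BAD passed at -0.30 and -0.33 with limma on log2(FPKM + 1) and log2(FPKM + 0.1), and was at 0.029 and 0.18 with the trends removed. ZBTB16 did not pass with DESeq2 (-0.36), limma on log2(FPKM + 1) (-0.23 with and without the filter), on log2(FPKM + 0.1) (-0.36) or on log2(TPM + 1) (-0.11). The log2 difference of the BH3-only ratio lay between -0.034 and 0.023 when a library was left out and was -0.20 without MCL1. Over all genes DESeq2 called 2169 higher and 2272 lower, limma on log2(FPKM + 1) 2038 higher (1421 without the filter), on log2(FPKM + 0.1) 2034 higher, and on log2(TPM + 1) 5446 higher and 1893 lower. The cause of these differences was not tested. Same-numbered libraries share only a number (correlation of their deviations 3.6e-04), and with the replicate block 5 members fell and BAX was at -1.09. BAD and BBC3, at 157 counts or fewer per library, had the widest intervals of the members.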
